A study of Mus musculus with 15 samples.

Results

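The genes described here are 35 transcripts of glucose uptake, glycolysis, lactate export and the cellular response to low oxygen, followed through an RNA immunoprecipitation (RIP) experiment. They were taken by gene symbol from a list of uptake, glycolytic, lactate and HIF pathway genes. All 35 were found among the 25239 genes of the deposited table, and all 35 passed the filter on low counts that left 17835 genes for testing. The cells were ST2, a stromal line from mouse bone marrow. Lysates of formaldehyde-fixed cells were precipitated with an antibody to the RNA-binding protein Arid5a or with a control antibody, mouse IgG2b, and the recovered RNA was sequenced in 15 stranded libraries. The groups were the Arid5a RIP with IL-17 (4 libraries), the IgG RIP with IL-17 (3 libraries, numbered 2 to 4), the Arid5a RIP in medium (4) and the IgG RIP in medium (4). IL-17 was given at 200 ng/mL for 3 h. All groups were of the same cell line, and no genotype or allele is labelled. No library of unprecipitated RNA was analysed here, so a level in a RIP library reflects both how much of a transcript the cells held and how much of it was carried through the precipitation. The labels do not say whether replicates came from separate cultures, so p-values measure the spread between these libraries, which may be technical.

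Glycolysis converts glucose to pyruvate in the cytosol. Glucose enters through facilitative transporters, is trapped as a phosphate by hexokinase, is split into triose phosphates and yields ATP in the lower steps. Lactate dehydrogenase and monocarboxylate transporters dispose of the product when it does not enter mitochondria. Hypoxia-inducible factors (HIF) are pairs of an oxygen-labile alpha subunit and a constant beta subunit that raise the transcription of many of these same genes. In oxygen, prolyl hydroxylases mark the alpha subunit, and the VHL ubiquitin ligase then has it destroyed. Besides low oxygen, inflammatory signals are known to raise Hif1a mRNA in several cell types. IL-17 itself acts on stromal cells, in which it induces chemokine genes.

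Library totals ran from 939139 counts (IgG medium 2) to 5713913 (Arid5a IL-17 3). Levels are CPM, counts scaled to the library total and levelled by TMM factors, which rest on the assumption that most genes do not differ. A gene is said to have changed where its adjusted p was below 0.05 in edgeR's quasi-likelihood test over all tested genes. The stromal identity of the libraries was checked on 10 stromal marker genes, which summed to between 11480 and 18150 CPM in every library. The collagens Col1a1 and Col1a2, Cxcl12 and Sparc carried most of that sum, while Thy1 and Lum were near absent, with group means of 2.21 to 6.23 and 1.45 to 3.20 CPM and as little as 1 count in a library. Lists of haematopoietic, epithelial and endothelial markers summed to at most 24.9, 69.4 and 38.2 CPM in a library, and the pan-leukocyte gene Ptprc lay between 0 and 3.28 CPM. Of an IL-17 response list of 8 genes, the 6 that passed the filter rose with IL-17 in both RIPs. Lcn2 and Il6 did not pass it, with at most 7 and 8 counts in a library, so their response could not be read. Cxcl5 had 1 to 10 counts in the medium libraries, so it passed through its IL-17 libraries. Olfactory and vomeronasal receptor genes, silent in most cells outside sensory organs, summed to 1676, 1801, 1404 and 4039 CPM in the Arid5a IL-17 libraries. They summed to 2371 to 3351 CPM in the IgG IL-17 libraries, 3216 to 4737 CPM in Arid5a medium and 1978 to 3074 CPM in IgG medium. Arid5a IL-17 library 4 therefore stood apart from the other libraries of its group, and the part of these counts in the results that follow was not tested.

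The genes spanned a wide range of levels. By FPKM, the deposited unit that is scaled to gene length and so allows genes to be compared, the median over the 15 libraries was 763 for Gapdh, 585 for Eno1 and 449 for Pkm. Pgam1 (309.6), Ldha (295), Aldoa (275), Pgk1 (246) and Tpi1 (115) followed, all of them enzymes of the trunk of glycolysis or its lactate branch. In that order, only Pgk1 against Tpi1 and Tpi1 against Gpi1 (51.9) were neighbours whose ranges over the 15 libraries did not overlap. Gapdh exceeded Eno1 in 13 of 15 libraries and Ldha exceeded Aldoa in 8 of 15. The lowest medians were those of Egln3 (1.59), Slc2a3 (1.46) and Aldoc (0.93). Summed over all 35 genes, the share of a library's counts lay between 0.518% and 0.640%, with 0.543% to 0.639% in the Arid5a IL-17 libraries and 0.569% to 0.640% in the Arid5a medium libraries.

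**Figure D1:**
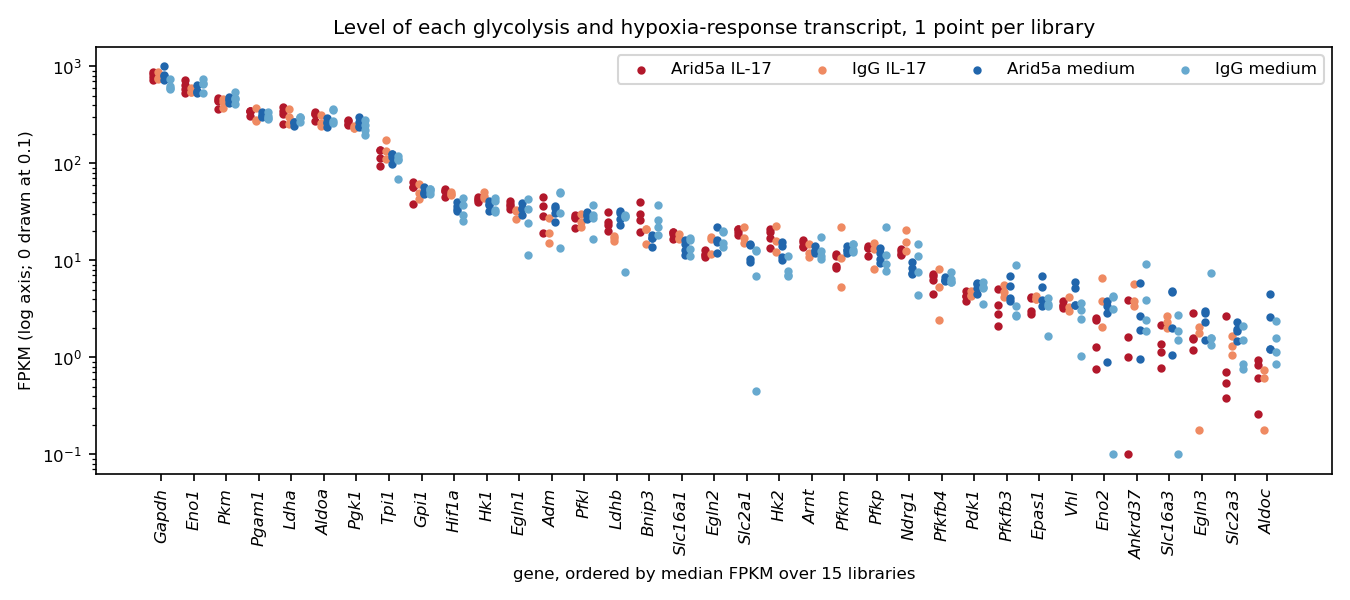
Length-scaled level (FPKM, log axis) of each of the 35 genes in each library. Each point is a library, coloured by group, with genes ordered by their median over the 15 libraries and values of 0 drawn at 0.1. The trunk enzymes from Gapdh to Tpi1 lie highest, and Aldoc, at a median of 0.93, lies lowest.

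In most isozyme families the order of the genes was the same in nearly every library. Aldoa, the muscle-type aldolase, exceeded Aldoc in 15 of 15 libraries by a median FPKM ratio of 327, and Eno1 exceeded the neuronal Eno2 in 15 of 15. Ldha, whose product favours the conversion of pyruvate to lactate, exceeded Ldhb in 15 of 15 by a median ratio of 11.4. Hif1a exceeded Epas1, which encodes the other main alpha subunit, in 15 of 15 by a median ratio of 12. Slc16a1, a lactate and pyruvate transporter, exceeded Slc16a3 in 15 of 15, and Slc2a1, the widespread basal glucose transporter, exceeded Slc2a3 in 14 of 15. Hk1, the constitutive hexokinase, exceeded Hk2 in 15 of 15, though only by a median ratio of 3.19. Among the phosphofructokinases Pfkl exceeded Pfkp and Pfkm in 14 of 15 libraries each, while Pfkp exceeded Pfkm in 8 of 15, so that they had no settled order. Of the prolyl hydroxylases, Egln1 exceeded Egln2 in 14 of 15 and Egln2 exceeded Egln3 in 15 of 15.

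IL-17 was set against medium in the Arid5a RIP first. In it 5 genes rose and 0 fell: Hif1a, Bnip3, Slc16a1, Hk2 and Ldha, by 1.41-fold to 1.96-fold. These 5 of 35 genes (14.3%) stand beside 4.84% of all tested genes called higher (863 of 17835) and 0.813% called lower (145). Calls went mostly to abundant genes. Among well-expressed genes, those averaging 5 or more in log2 CPM, the genes described here were called higher in 5 of 21 cases (23.8%) and the whole set in 833 of 5390 (15.5%). The median log2 fold was 0.17 over the 35 genes, -0.12 over all tested genes and 0.30 over the well-expressed ones. As a class the well-expressed genes lay above 0 here under the main scaling. Of the 10 stromal markers, 4 also rose here (Col3a1, Vcam1, Col1a2 and Sparc, by 0.40 to 1.03 on the log2 scale), and the part of that shift in these calls was not tested.

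The calls depended on the scaling. With TMM factors taken from the well-expressed genes alone, 0 of the 35 were called, and over all genes 115 were called higher and 206 lower. Hif1a then had a log2 fold of 0.42 with an adjusted p of 0.0854, and the median of the 35 was -0.13. With upper-quartile factors 1 of the 35 was called, and with library totals 0 were. Leaving out Arid5a IL-17 libraries 1, 2, 3 or 4 gave 1, 1, 2 or 9 called genes, and leaving out Arid5a medium libraries 1, 2, 3 or 4 gave 2, 1, 3 or 2. Hif1a was among the called genes in each of these 8 fits. Over all tested genes the same 8 fits called from 308 to 2257 genes, beside 863 higher and 145 lower in the main fit. The counts of the 35 are therefore not read as a result about these genes.

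Hif1a encodes the oxygen-labile alpha subunit and lies at chr12:73901324-73947554 (GRCm38.p6, the assembly that mm10 names). It measured 264, 275, 258 and 195 CPM in Arid5a IL-17 libraries 1 to 4, against 142, 137, 161 and 157 CPM in Arid5a medium libraries 1 to 4. Every IL-17 library lay above every medium library. The log2 fold was 0.73 ± 0.15 (SE) with an adjusted p of 0.00242. With the IgG antibody Hif1a measured 208, 212 and 245 CPM in IL-17 libraries 2 to 4, against 200.2, 120.2, 148 and 164 CPM in medium libraries 1 to 4. The groups did not overlap there either, but the fold of 0.47 ± 0.16 was not called (adjusted p = 0.216). The difference between the RIPs, tested as the interaction of antibody and IL-17, was 0.26 ± 0.22 (adjusted p = 0.569).

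Hk2 encodes the inducible hexokinase that can bind mitochondria, and its gene lies at chr6:82725025-82774454. It measured 102, 114, 119.7 and 68.5 CPM in the Arid5a IL-17 libraries, against 72.0, 50.4, 72.9 and 50.5 CPM in Arid5a medium. Library 4 with IL-17 fell within the range of the medium libraries, and the other IL-17 libraries lay above it. The log2 fold was 0.72 ± 0.21 (adjusted p = 0.0345). In the IgG RIP Hk2 measured 116, 63.0 and 89.5 CPM with IL-17, against 41.7, 39.3, 65.0 and 35.5 CPM in medium. It was the only gene of the 35 called there, with a log2 fold of 0.98 ± 0.23 and an adjusted p of 0.0375. The interaction was -0.26 ± 0.31 (adjusted p = 0.712).

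Ldha and Slc16a1 act at the end of the pathway, in making lactate and in moving it across the plasma membrane. Ldha (chr7:46842274-46855627) measured 525, 569, 479 and 339 CPM in the Arid5a IL-17 libraries, against 332, 337, 338 and 348 CPM in Arid5a medium. Its IL-17 library 4 again lay within the medium range. The log2 fold was 0.50 ± 0.15 (adjusted p = 0.0345), and in the IgG RIP it was 0.03 ± 0.16 (adjusted p = 0.97). There the values were 357, 399 and 547 CPM with IL-17, against 429, 398, 464 and 404 CPM in medium. The IgG groups overlapped widely. Slc16a1 (chr3:104638664-104658462) measured 88.5, 91.8, 90.2 and 67.1 CPM in the Arid5a IL-17 libraries, against 46.6, 54.9, 59.6 and 51.5 CPM in Arid5a medium. These groups did not overlap, and the log2 fold was 0.67 ± 0.18 (adjusted p = 0.0231). The IgG libraries gave 77.5, 69.3 and 74.7 CPM of Slc16a1 with IL-17, against 70.0, 58.4, 79.5 and 45.1 CPM in medium, with a log2 fold of 0.22 ± 0.20 (adjusted p = 0.753). The interactions of Ldha (0.47 ± 0.21, adjusted p = 0.27) and Slc16a1 (0.45 ± 0.27, adjusted p = 0.404) were not called.

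Bnip3, a mitochondrial outer membrane protein of the mitophagy and cell death pathways, was the only gene of the 35 whose response to IL-17 was called different between the RIPs. It measured 49.7, 64.7, 42.5 and 28.6 CPM in the Arid5a IL-17 libraries, against 20.5, 23.5, 25.3 and 25.1 CPM in Arid5a medium. The groups did not overlap, and the log2 fold was 0.97 ± 0.25 (adjusted p = 0.018). With IgG it measured 32.3, 30.8 and 24.4 CPM with IL-17, against 29.1, 35.9, 63.2 and 38.4 CPM in medium. There the log2 fold was -0.51 ± 0.28 and was not called (adjusted p = 0.51). The interaction was 1.48 ± 0.38 on the log2 scale (adjusted p = 0.0435), where 0.869% of all tested genes were called higher (155) and 0.107% lower (19). Among well-expressed genes 152 of 5390 were called higher (2.82%), beside 1 of the 21 described here. The median interaction was 0.34 over well-expressed genes, 0.24 over the 35 and -0.05 over all tested genes. The call of Bnip3 held in 8 of 26 alternatives. Scaling by well-expressed genes left an interaction of 1.11 for Bnip3 (adjusted p = 0.18) and 0 calls over all genes. Without IgG medium library 3 the interaction of Bnip3 was 1.20 (adjusted p = 0.14), and of the 15 fits that left out a library, 4 kept the call: those without Arid5a IL-17 4 and without IgG medium 1, 2 or 4. Its gene, at chr7:138890836-138909506, overlaps the model Gm18258, and reads of both could be counted together. The same limit holds, among others, for Hif1a (Gm15283), Ldha (Gm39011) and Slc2a1 (Gm12867 and Gm52706).

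**Figure D2:**
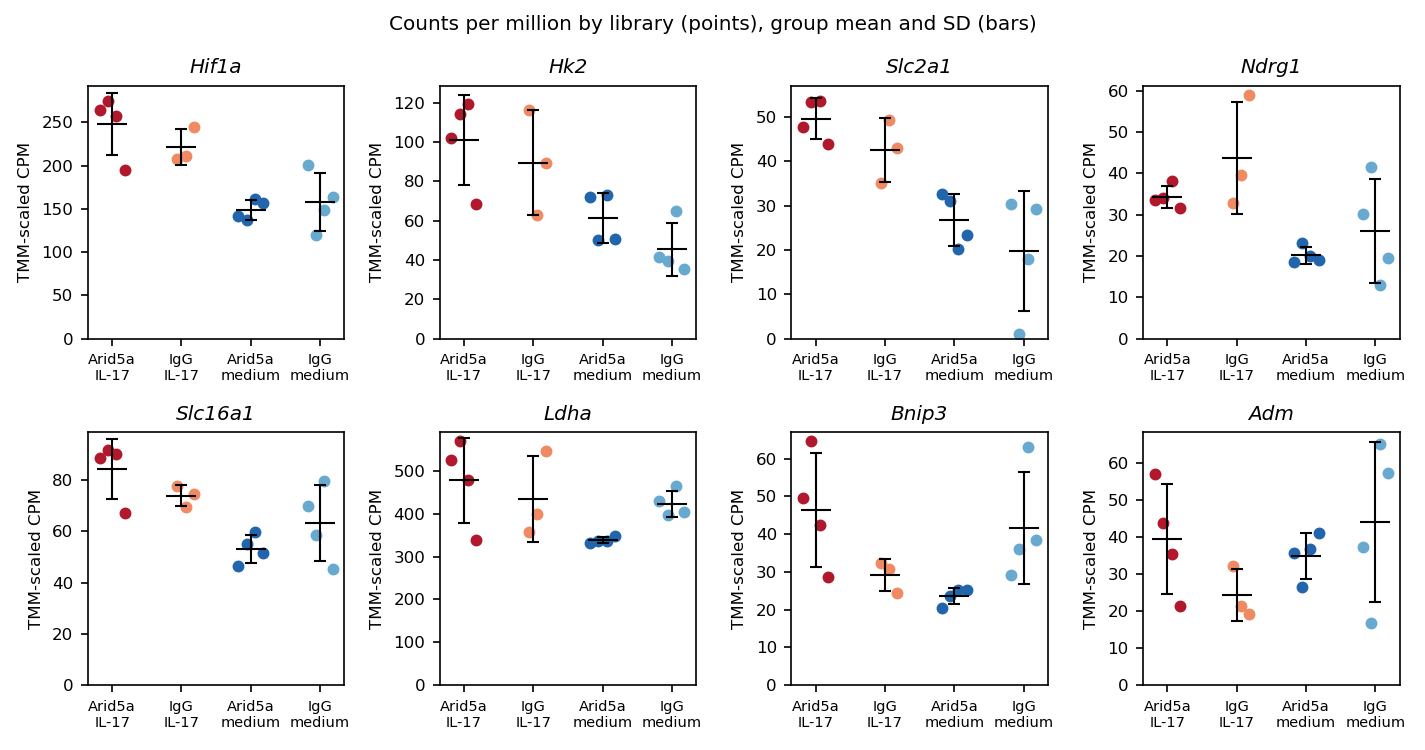
TMM-scaled CPM in each library for Hif1a, Hk2, Slc2a1, Ndrg1, Slc16a1, Ldha, Bnip3 and Adm. Points are libraries in 4 groups (Arid5a IL-17, IgG IL-17, Arid5a medium, IgG medium), and bars are the group mean and SD. Hif1a lies between 195 and 275 CPM in the Arid5a IL-17 libraries, all above the 137 to 161 CPM of the Arid5a medium libraries.

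The promoters of these 5 genes are shown because the genes moved in the same direction in this comparison and HIF target genes carry a short HIF-binding core. The sequences are RefSeq, GRCm38.p6, 250 bases ending just before the first listed transcript start, written 5′ to 3′ on the strand of the gene. Capitals mark ACGTG and GCGTG on either strand, so that CACGT and CACGC are the same motifs read from the other strand. CACGTG is a palindrome and holds ACGTG on both strands. For Ldha and Hif1a the listed start lies inside the gene model, downstream of its outermost end.
Hif1a, chr12:73907617-73907866, plus strand: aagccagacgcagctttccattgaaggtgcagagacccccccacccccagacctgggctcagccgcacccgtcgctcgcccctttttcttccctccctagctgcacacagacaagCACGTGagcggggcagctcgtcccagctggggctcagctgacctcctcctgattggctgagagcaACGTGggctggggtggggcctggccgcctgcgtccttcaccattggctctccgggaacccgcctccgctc
Hk2, chr6:82774455-82774704, minus strand: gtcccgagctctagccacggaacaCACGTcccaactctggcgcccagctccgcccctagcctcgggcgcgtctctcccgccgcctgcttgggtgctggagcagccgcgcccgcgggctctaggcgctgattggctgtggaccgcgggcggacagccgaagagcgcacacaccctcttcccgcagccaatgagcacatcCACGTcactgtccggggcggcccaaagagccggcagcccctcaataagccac
Ldha, chr7:46845554-46845803, plus strand: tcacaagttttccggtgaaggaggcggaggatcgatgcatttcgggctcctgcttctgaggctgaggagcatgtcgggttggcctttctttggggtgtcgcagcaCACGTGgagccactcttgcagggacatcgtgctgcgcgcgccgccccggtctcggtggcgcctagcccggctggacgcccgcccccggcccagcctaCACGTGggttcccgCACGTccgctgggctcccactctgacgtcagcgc
Slc16a1, chr3:104638414-104638663, plus strand: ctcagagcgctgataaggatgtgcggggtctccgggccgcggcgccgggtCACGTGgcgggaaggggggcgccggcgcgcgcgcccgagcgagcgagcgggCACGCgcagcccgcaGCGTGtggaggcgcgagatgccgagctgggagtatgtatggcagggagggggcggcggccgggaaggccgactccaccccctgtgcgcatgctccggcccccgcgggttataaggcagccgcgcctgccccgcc
Bnip3, chr7:138909507-138909756, minus strand: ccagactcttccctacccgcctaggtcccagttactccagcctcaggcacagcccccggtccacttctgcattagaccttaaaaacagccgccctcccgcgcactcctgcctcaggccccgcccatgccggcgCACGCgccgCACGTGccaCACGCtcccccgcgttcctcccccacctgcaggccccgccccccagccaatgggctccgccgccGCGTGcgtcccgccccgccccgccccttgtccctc

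ACGTG was present in 5 of these 5 windows, in 15 of the 32 windows available for the 35 genes (46.9%) and in 16.6% of 27025 promoter windows of the same length. Either motif was present in 25 of the 32 (78.1%) and in 38.6% of all. These shares describe letters, not binding sites. Base composition differed as well, with a median GC content of 69.6% in the 5 windows, 60.6% in the 32 and 52.0% in all windows. The 35 genes were listed as genes of glucose uptake, glycolysis, lactate export or the HIF pathway, and the 5 were picked by their calls. Those calls fell to 1 with upper-quartile factors and to 0 with library totals or factors from well-expressed genes. The 27025 windows were not limited to genes that passed the filter on counts, as all 35 did. A part of HIF in the calls was not tested.

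Of the genes that were not called in the Arid5a RIP, Slc2a1 and Ndrg1 had the smallest unadjusted p with IL-17. Slc2a1 (chr4:119108745-119137330) measured 47.8, 53.3, 53.6 and 43.9 CPM in the Arid5a IL-17 libraries, against 32.6, 31.0, 20.2 and 23.3 CPM in Arid5a medium. The groups did not overlap, and the log2 fold was 0.90 ± 0.31 (adjusted p = 0.0835). With IgG it measured 35.1, 49.4 and 43.1 CPM with IL-17, against 30.5, 1.12, 18.1 and 29.1 CPM in medium, where library 2 held 1 count of it. Those groups did not overlap either, and the fold of 0.97 ± 0.34 was not called (adjusted p = 0.235). Ndrg1, a stress-responsive gene raised by hypoxia, lies at chr15:66929318-66969641. It measured 33.5, 34.0, 38.1 and 31.7 CPM in the Arid5a IL-17 libraries, against 18.6, 23.1, 19.9 and 18.9 CPM in Arid5a medium. These groups did not overlap, with a log2 fold of 0.77 ± 0.27 (adjusted p = 0.0873). With the IgG antibody Ndrg1 measured 32.8, 39.6 and 58.9 CPM with IL-17, against 30.2, 41.6, 13.0 and 19.5 CPM in medium, with a log2 fold of 0.80 ± 0.30 (adjusted p = 0.266).

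Non-overlap was read over all 35 genes. In the Arid5a RIP every IL-17 library lay above every medium library for 7 genes: Slc2a1, Slc16a1, Hif1a, Arnt, Egln1, Bnip3 and Ndrg1. Over all tested genes this held for 10.7%, and among well-expressed genes for 29% against 6 of the 21 well-expressed genes described here (28.6%). It held below for Aldoc alone, against 9.25% of all tested genes. In the IgG RIP it held above for Slc2a1 and Hif1a (4.27% of all tested genes) and below for Aldoc (3.32%). Aldoc was present at 0.48 to 9.91 CPM, and its log2 folds of -1.61 ± 0.72 in the Arid5a RIP (adjusted p = 0.183) and -1.59 ± 0.84 in the IgG RIP (adjusted p = 0.488) were not called.

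In the IgG RIP 1 of the 35 genes was called higher with IL-17, Hk2, and 0 were called lower, against 0.258% (46) and 0.235% (42) of all tested genes. The median log2 fold of the 35 was -0.04, that of all genes 0.00 and that of the well-expressed genes -0.04. The call of Hk2 held with the factors from well-expressed genes (log2 fold 1.02, adjusted p = 0.0179). It was lost without IgG IL-17 library 2 (0.74, adjusted p = 0.241) or 4 (adjusted p = 0.085), and without IgG medium library 1, 2 or 4 (adjusted p = 0.0541, 0.0698 and 0.12). Adm, the vasodilator peptide adrenomedullin, measured 32.3, 21.4 and 19.1 CPM with IL-17, against 37.3, 16.9, 65.4 and 57.3 CPM in medium. Its log2 fold of -0.89 ± 0.33 was not called (adjusted p = 0.255). In the Arid5a RIP Adm measured 57.0, 44.0, 35.4 and 21.5 CPM with IL-17, against 35.8, 26.4, 36.7 and 41.2 CPM in medium, and the groups overlapped.

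**Figure D3:**
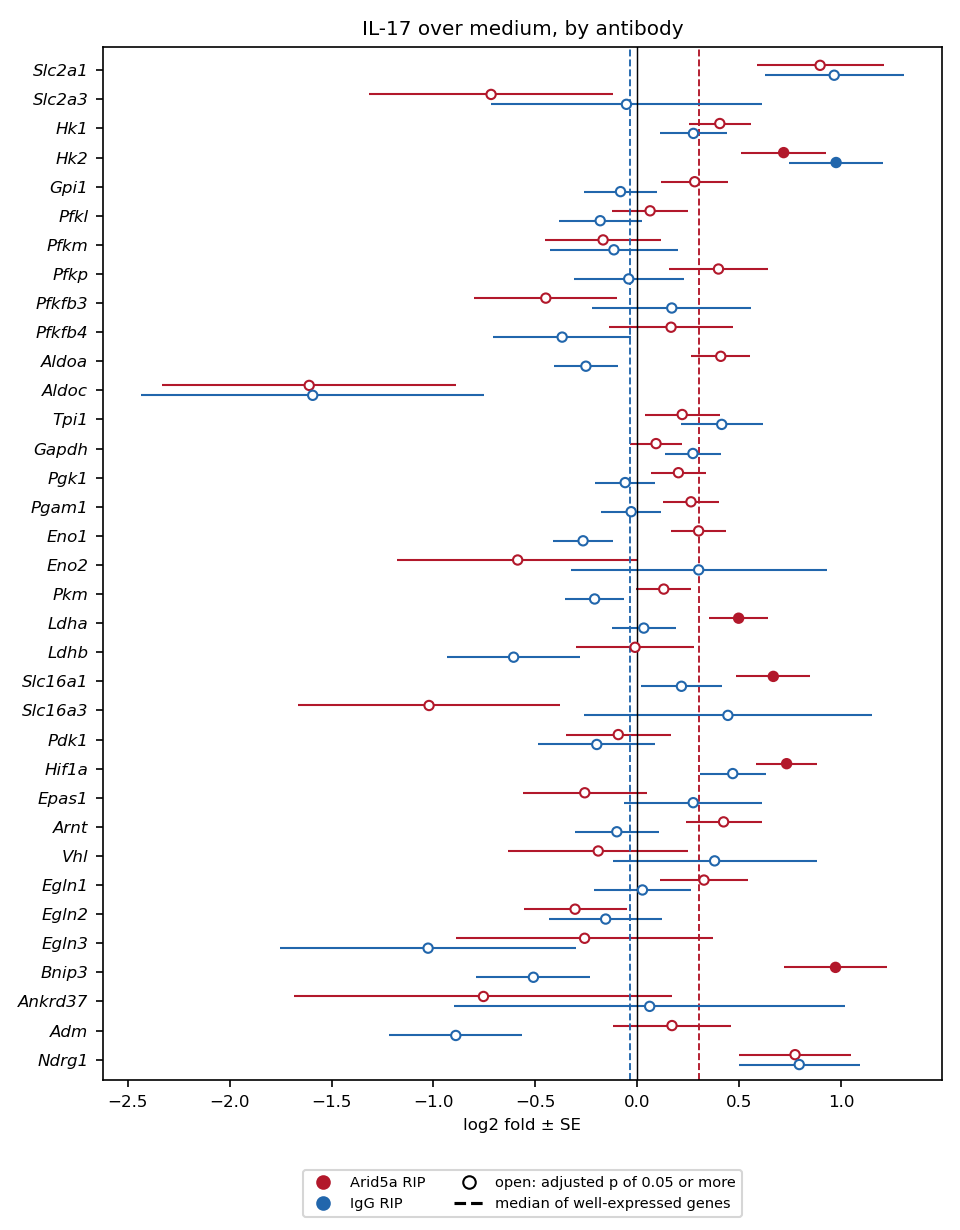
Log2 fold of IL-17 over medium in the Arid5a RIP and in the IgG RIP for each of the 35 genes, with the SE of the fit. Filled points had an adjusted p below 0.05, and dashed lines mark the medians of the well-expressed genes, 0.30 in the Arid5a RIP and -0.04 in the IgG RIP. Hif1a, Hk2, Slc2a1 and Ndrg1 lie to the right of 0 in both RIPs.

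The mean of the IL-17 effects in both RIPs, a contrast added after the data were seen, asks what IL-17 did whichever antibody was used. By it 4 of the 35 genes rose and 0 fell, against 2.6% (464) and 0.662% (118) of all tested genes. Among well-expressed genes 3 of 21 (14.3%) were called higher, beside 7.88% of the whole set. DESeq2 called 5 of the 35 higher and 1 lower, Aldoc, at a log2 fold of -1.65 (adjusted p = 0.0302). Over all 17835 tested genes DESeq2 called 543 higher (3.04%) and 342 lower. Hif1a rose by 0.60 ± 0.11 on the log2 scale (adjusted p = 0.000922), Hk2 by 0.85 ± 0.16 (adjusted p = 0.000942), Slc2a1 by 0.93 ± 0.23 (adjusted p = 0.019) and Ndrg1 by 0.79 ± 0.20 (adjusted p = 0.0224). They are an alpha subunit, a hexokinase, a glucose transporter and a HIF target gene. The other transporter Slc2a3 (-0.38) and the other alpha subunit Epas1 (0.01) were not called. Nor were the other HIF targets Bnip3 (0.23), Ankrd37 (-0.35) and Adm (-0.36). Hif1a and Hk2 kept their calls in all 26 alternatives run, with adjusted p of at most 0.0358 and 0.0475. Slc2a1 was called in 20 of the 26 and Ndrg1 in 15. Scaling by well-expressed genes left log2 folds of 0.45 for Hif1a, 0.71 for Hk2, 0.79 for Slc2a1 (adjusted p = 0.0773) and 0.64 for Ndrg1 (adjusted p = 0.0907). That scaling also gave 177 higher and 229 lower calls over all genes. Without Arid5a IL-17 library 2 only Hif1a and Hk2 were called, and without library 4 of that group 7 genes were. Over all tested genes the 15 fits that left out a library called from 286 to 1005 genes. Ndrg1 also lost its call without Arid5a IL-17 3, IgG IL-17 4, Arid5a medium 1 or IgG medium 3 or 4, with adjusted p between 0.0502 and 0.0641. Slc16a1 (0.44 ± 0.13, adjusted p = 0.0587), Hk1 (0.34 ± 0.11, adjusted p = 0.0893), Aldoc (-1.60 ± 0.56, adjusted p = 0.112), Ldha (0.27 ± 0.11, adjusted p = 0.186) and Bnip3 (0.23 ± 0.19, adjusted p = 0.577) were not called by this contrast.

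By role, 1 of 11 upper glycolysis genes, Hk2, was called with IL-17 in either RIP. Neither of the 2 glucose transporters was, although Slc2a1 was called by the mean over RIPs. None of the 6 lower glycolysis genes was called in any comparison, nor were the 4 genes of HIF degradation. Of the 5 lactate and pyruvate genes Ldha and Slc16a1 were called, of the 3 HIF subunits Hif1a, and of the 4 other HIF targets Bnip3, with Ndrg1 called by the mean over RIPs. Beside these counts, IL-17 raised 4.84% of all tested and 15.5% of well-expressed genes in the Arid5a RIP. In the IgG RIP the shares were 0.258% and 0.594%, and by the mean over RIPs 2.6% and 7.88%. With 2 to 11 genes in a role, the counts do not set the roles apart. Gapdh, the triose phosphate dehydrogenase often used as a reference, measured 1037, 967, 855 and 825 CPM in the Arid5a IL-17 libraries, against 780.3, 995, 806 and 875 CPM in Arid5a medium. The groups overlapped, with a log2 fold of 0.09 ± 0.13 (adjusted p = 0.685). The IgG RIP held 827, 798 and 1055 CPM of it with IL-17, against 863, 698, 716 and 676 CPM in medium, with a log2 fold of 0.27 ± 0.14 (adjusted p = 0.462).

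Egln1, the main prolyl hydroxylase of HIF alpha subunits, measured 139.8, 132, 120.0 and 129 CPM in the Arid5a IL-17 libraries, against 109, 114, 85.2 and 107 CPM in Arid5a medium. The groups did not overlap, but the log2 fold of 0.33 ± 0.22 was not called (adjusted p = 0.369). With IgG it measured 104, 106 and 93.8 CPM with IL-17, against 115, 39.3, 157 and 76.2 CPM in medium, with a log2 fold of 0.03 ± 0.24 (adjusted p = 0.986). The medium libraries of the IgG RIP spread on both sides of the IL-17 libraries. The genes that were measured least had the widest errors. Ankrd37, Aldoc, Slc16a3, Egln3, Slc2a3, Eno2 and Vhl had SEs of 0.44 to 0.93 with IL-17 in the Arid5a RIP. Eno2 and Slc16a3 had 0 counts in IgG medium library 2 and Ankrd37 in Arid5a IL-17 library 1, each of which allows up to 3 counts at that depth. Eno1 has a near-identical copy, Eno1b, which held 7.06% to 10.4% of the counts of the pair in the 4 IgG medium libraries and 11.5% to 15.1% in the 11 others.

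The Arid5a RIP was then set against the IgG RIP, the comparison that asks which transcripts co-precipitated with the protein. None of the 35 genes was called in medium, against 10 genes called higher (0.0561% of 17835) and 102 called lower (0.572%). The splits over all genes were 2 and 2 with upper-quartile factors and 8 and 5 with library totals. With IL-17 again 0 of the 35 were called, against 10 higher (0.0561%) and 2 lower (0.0112%). At an unadjusted p below 0.05, 4 of the 35 were lower in medium (Aldoa, Eno1, Ldha and Bnip3) and 0 higher, beside 8.28% and 4.5% of all genes. These 4 are all well-expressed, where they make up 4 of 21 (19%) beside 22.4% of the whole set. With IL-17, 2 were higher (Bnip3 and Adm) and 0 lower, beside 4.74% and 4.21% of all genes, or 2 of 21 well-expressed ones (9.52%) beside 12.8%. DESeq2 and voom with quality weights also called 0 of the 35 in either condition.

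Bnip3 measured 20.5, 23.5, 25.3 and 25.1 CPM in Arid5a medium, against 29.1, 35.9, 63.2 and 38.4 CPM in IgG medium. The groups did not overlap, with a log2 fold of -0.82 ± 0.26 that was not called (adjusted p = 0.145). It was called in the fit without IgG medium library 1 (-0.98, adjusted p = 0.0479), and over the other fits its adjusted p ran up to 0.468. With IL-17 Bnip3 measured 49.7, 64.7, 42.5 and 28.6 CPM in the Arid5a RIP, against 32.3, 30.8 and 24.4 CPM in the IgG RIP. The log2 fold was 0.66 ± 0.27 (adjusted p = 0.463). The groups overlapped at Arid5a library 4. The interaction tested whether these log2 folds differ in size, not their signs, and neither fold was called on its own.

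Aldoa, which splits fructose bisphosphate, measured 332, 339, 274 and 329 CPM in Arid5a medium, against 349.6, 482, 518 and 338 CPM in IgG medium. With IL-17 it measured 453, 463, 437 and 339 CPM in the Arid5a RIP, against 310, 391 and 359 CPM in the IgG RIP. Neither difference was called, with log2 folds of -0.40 ± 0.15 (adjusted p = 0.213) in medium and 0.26 ± 0.16 (adjusted p = 0.65) with IL-17. Eno1, the enolase of most tissues, measured 839, 902, 729.9 and 807 CPM in Arid5a medium, against 1055, 1219, 1178 and 794 CPM in IgG medium. Its log2 fold there was -0.37 ± 0.14 (adjusted p = 0.218), and that of Eno1 and Eno1b summed was -0.30 ± 0.13 (adjusted p = 0.332). With IL-17 Eno1 measured 1083, 1200.0, 969 and 786 CPM in the Arid5a RIP, against 848, 889 and 909 CPM in the IgG RIP, with a log2 fold of 0.20 ± 0.15 (adjusted p = 0.736). The interactions of Aldoa (0.66 ± 0.21, adjusted p = 0.112) and Eno1 (0.57 ± 0.20, adjusted p = 0.141) had the smallest unadjusted p among the uncalled genes. Summed with its copy Eno1b, Eno1 had an interaction of 0.50 ± 0.20 (adjusted p = 0.188).

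For Hif1a neither difference was called, with log2 folds of -0.10 ± 0.15 in medium (adjusted p = 0.824) and 0.17 ± 0.16 with IL-17 (adjusted p = 0.804). Hk2 had log2 folds of 0.43 ± 0.22 in medium (adjusted p = 0.415) and 0.17 ± 0.22 with IL-17 (adjusted p = 0.863). For Slc2a1 they were 0.30 ± 0.32 (adjusted p = 0.737) and 0.23 ± 0.33 (adjusted p = 0.877). Ldha was lower in every Arid5a medium library than in any IgG medium library, with a log2 fold of -0.32 ± 0.15 (adjusted p = 0.339), and its groups overlapped with IL-17 (0.14 ± 0.16, adjusted p = 0.83). Gapdh had log2 folds of 0.23 ± 0.13 in medium (adjusted p = 0.467) and 0.05 ± 0.14 with IL-17 (adjusted p = 0.947), and Egln1 of 0.06 ± 0.22 (adjusted p = 0.945) and 0.36 ± 0.24 (adjusted p = 0.685). Adm had log2 folds of -0.38 ± 0.29 in medium (adjusted p = 0.62) and 0.68 ± 0.32 with IL-17 (adjusted p = 0.532).

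Over all 35 genes the median log2 fold of Arid5a over IgG was -0.13 in medium and 0.16 with IL-17. The medians of the well-expressed genes were -0.19 and 0.15, and those of all tested genes 0.04 and -0.01. Every Arid5a library lay below every IgG library in medium for 4 genes (Gpi1, Pfkm, Ldha and Bnip3), against 4.05% of all tested genes and 11.2% of well-expressed ones (4 of 21 here), and above for 0, against 5%. With IL-17 every Arid5a library lay above for 3 genes (Ldhb, Arnt and Egln1, the last 2 among the 21 well-expressed), against 5.3% of all tested and 11.2% of well-expressed genes, and below for 0, against 4.39%. The sign of the log2 fold was the same in all 4 other scalings for 28 of the 35 genes in medium and 27 with IL-17. Hif1a in medium was among the exceptions, at 0.07 with the factors from well-expressed genes.

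**Figure D4:**
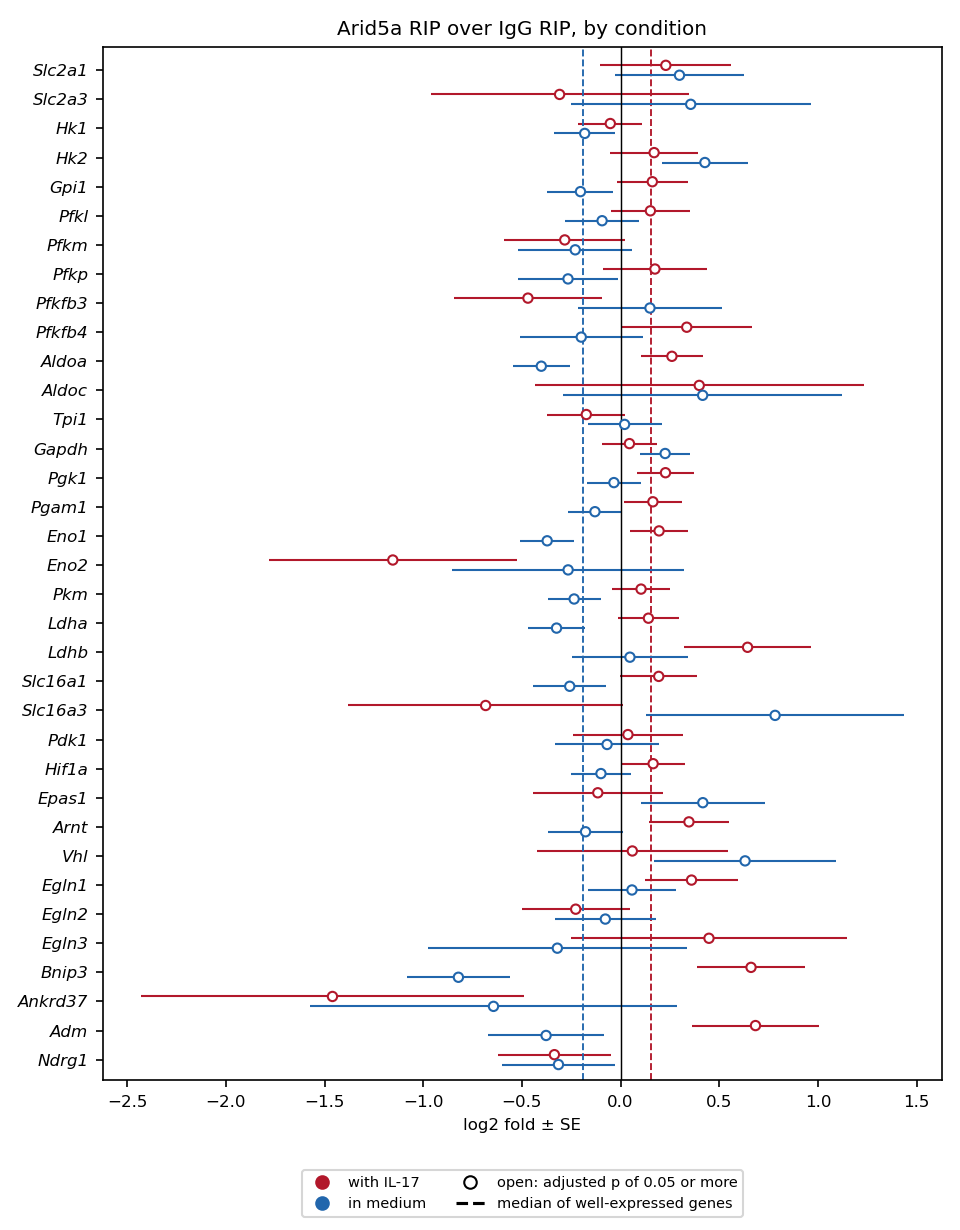
Log2 fold of the Arid5a RIP over the IgG RIP with IL-17 and in medium for each of the 35 genes, with the SE of the fit. All points are open, since none had an adjusted p below 0.05. Dashed lines mark the medians of the well-expressed genes, 0.15 with IL-17 and -0.19 in medium.

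Further lists of the same pathways, drawn up with earlier results of these data known, were read the same way. Of 29 tested other HIF target genes, 8 rose with IL-17 in the Arid5a RIP and 0 fell, beside the 4.84% of all tested and 15.5% of well-expressed genes called higher there. Higher calls over all genes fell from 863 to 202 with upper-quartile factors, 156 with library totals and 115 with factors from well-expressed genes. Which of the 8 calls held with those scalings is not given here. Vegfa, the angiogenic growth factor, rose by 2.14 ± 0.17 on the log2 scale (adjusted p = 4.10e-11). Plod2 and Lox, which modify and crosslink collagen, rose by 1.3 ± 0.21 and 0.68 ± 0.12. Hmox1, haem oxygenase, rose by 0.72 ± 0.15. In the IgG RIP 1 of the 29 rose, Vegfa, by 0.91 ± 0.18 (adjusted p = 0.00735), beside 0.258% of all genes. Vegfa and P4ha1, a collagen prolyl hydroxylase, were also called in the interaction, at 1.23 ± 0.25 (adjusted p = 0.0149) and 1.02 ± 0.23 (adjusted p = 0.0223), where 0.869% of all genes were called higher. Among well-expressed genes 2.82% were. With upper-quartile factors, library totals or factors from well-expressed genes, 0 genes were called in the interaction, so both calls were lost. In medium both were called lower with the Arid5a antibody than with IgG, at log2 folds of -0.84 ± 0.17 (adjusted p = 0.0191) and -0.69 ± 0.16 (adjusted p = 0.0307), beside 0.572% of all genes called lower. With factors from well-expressed genes 0 genes were called in that comparison, so these calls were lost as well.

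Of 27 tested other glycolysis and pyruvate genes, 3 rose with IL-17 in the Arid5a RIP: Mpc1, a subunit of the mitochondrial pyruvate carrier (1.14 ± 0.23, adjusted p = 0.00197), Pdha1 of pyruvate dehydrogenase (0.56 ± 0.14, adjusted p = 0.0162) and Bsg, the chaperone of Slc16a1 (0.43 ± 0.13, adjusted p = 0.0468). The 3 of 27 lie between the 4.84% of all tested and the 15.5% of well-expressed genes called higher there. None of the 27 was called in the IgG RIP. Of 8 pentose phosphate genes Pgd (0.66 ± 0.19, adjusted p = 0.0351) and Rpe (0.79 ± 0.25, adjusted p = 0.0486) rose in the Arid5a RIP, set against those same background shares, and Taldo1 was called in the interaction (1.01 ± 0.25, adjusted p = 0.0415). The call of Taldo1 was likewise lost with upper-quartile factors, library totals or factors from well-expressed genes. Whether the calls of Mpc1, Pdha1, Bsg, Pgd and Rpe in the Arid5a RIP held with those scalings is not given here. Of 14 tested other HIF regulators, 0 were called in any of the comparisons, with 3 at an unadjusted p below 0.05 for IL-17 in the Arid5a RIP. The median log2 fold of the other HIF targets there was 0.31, beside -0.12 for all tested genes and 0.30 for the well-expressed ones.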

How the data were processed

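RNA recovered from 15 immunoprecipitates of ST2 cells was analysed from 2 deposited tables. The authors' first deposited table was taken to hold expected counts without normalisation, because 2.66% to 10.3% of a library's values had decimals and the totals differed. The second deposited table holds FPKM for the same genes, normalised by the authors to length and mapped total, and was used for levels between genes. The submitters' processing notes name STAR 2.7.9, RSEM 1.3.1, DESeq2 1.36.0, R 4.3.0 and mm10. What each tool did, which annotation was used and how strand was set are not given in the sources used here, and 15 of the 35 genes overlap another gene model.

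Counts were rounded to whole numbers, filtered with filterByExpr (17835 genes kept), scaled by TMM and tested with edgeR 4.0.16 (robust quasi-likelihood F test, R 4.3.3). A model of 4 group means was fitted over all 15 libraries, with Benjamini-Hochberg adjustment over all tested genes and a threshold of 0.05. The SE is the log2 fold over the root of F. The common biological coefficient of variation was 0.341. Comparisons were Arid5a against IgG in medium and with IL-17, IL-17 against medium in each RIP, their interaction and, added after the data were seen, the mean IL-17 effect. The procedure was also run on simulated counts in which only chosen genes differed between groups. That setting holds no general shift between groups, so it cannot speak to the choice of scaling. The members and the further gene lists were chosen with earlier results of these data known. Values by library are given for called genes, the 2 uncalled genes of smallest p in each comparison but the added one, and Hif1a, Slc2a1, Hk2, Gapdh, Ldha and Egln1. Replicate numbers were not used as pairs in the main fit. Of 21 same-numbered pairs, 1 had deviations from group means that correlated above 0.1. Low correlations cannot show whether same-numbered libraries shared a culture, which the labels do not say.

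Alternatives were upper-quartile factors, library totals, factors from the 5390 well-expressed genes, DESeq2 1.42.0, limma 3.58.1 voom with quality weights, limma on log2(FPKM + 1) and log2(FPKM + 0.1), no filter, a stricter filter (every library of some group at 10 counts or more), a replicate block, the libraries compared alone, each library left out, and IgG medium 2 and IgG IL-17 4 left out together. A gene model was placed by matching symbols to a RefSeq table of GRCm38.p6 (25041 of 25239 matched). Promoters of 32 of the 35 genes were matched by symbol in RefSeq.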

Additional observations from a re-analysis of the deposited data

Results flagged for a closer look

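Among the 105 sets of 4 libraries of a group tested for a library far from its fellows, 9 were past Dixon's 95% critical value, where chance gives about 5%. Arid5a IL-17 library 4 was low for Pgam1 (473 CPM, others 591 to 606) and for Slc16a1 (67.1 CPM, others 88.5 to 91.8). It is also the library of its group with the most counts on receptor genes (4039 CPM). Without it 9 of the 35 genes were called for IL-17 in the Arid5a RIP. Over all tested genes the fits of that comparison that left out a library called from 308 to 2257 genes. IgG medium library 2, the shallowest with 939139 counts, was low for Ldhb (7.86 CPM, others 29.1 to 31.4) and high for Egln3 (19.1 CPM, others 3.20 to 4.33). In Arid5a medium, library 1 was high for Pkm (1030 CPM, others 875 to 897), library 2 low for Pfkfb4 (17.3 CPM, others 18.9 to 19.2) and library 3 low for Aldoa (274 CPM, others 329 to 339). In IgG medium, library 1 was high for Arnt (72.8 CPM, others 47.3 to 50.6) and library 4 low for Tpi1 (83.9 CPM, others 146 to 158).

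The response of Bnip3 to IL-17 differed between the RIPs by 1.48 on the log2 scale in the test of the difference itself, with log2 folds of 0.97 in the Arid5a RIP and -0.51 in the IgG RIP, of which the second was not called. The call of that difference held in 8 of 26 alternatives. The parts of depth, of the receptor gene counts and of single libraries in these values were not tested beyond the fits that leave a library out.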

How the results depend on the processing

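The log2 folds of the called genes kept their direction in every alternative run, and the scaling decided most calls. For IL-17 in the Arid5a RIP (5 of the 35 called), the count was 1 with upper-quartile factors, 0 with library totals, 0 with factors from well-expressed genes, 3 with the stricter filter, 19 with voom, 0 with either FPKM pseudocount, 9 without IgG medium 2 and IgG IL-17 4, and 10 with only the libraries compared. Leaving out a library gave 1 to 9. The median log2 fold (0.17) became -0.03, -0.07 and -0.13 with the first 3 of these scalings. Those 3 called 202, 156 and 115 of all tested genes higher, and 119, 145 and 206 lower. Over all alternatives of this comparison, calls over all tested genes ran from 75 to 7497. The counts of the 35 are therefore not read as a result about these genes. For IL-17 in the IgG RIP (1 called) the count was 0 with voom, either FPKM pseudocount, the joint removal and only the libraries compared, and 0 to 1 without a library. For the interaction (1 called) it was 0 with the 3 scalings, the stricter filter and either FPKM pseudocount, 5 with voom and 0 to 3 without a library. Its median (0.24) became -0.02, -0.07 and -0.11 with the 3 scalings and -0.08 with either FPKM pseudocount. For the mean over RIPs (4 called) it was 2 with the 3 scalings and either FPKM pseudocount, and 2 to 7 without a library. For Arid5a against IgG it was 0 to 1 in medium without a library and 0 in every alternative with IL-17. Calls over all genes ran from 0 to 350 in medium (112 as reported), 0 to 571 with IL-17 (12), 75 to 7497 for IL-17 in the Arid5a RIP (1008), 16 to 320 in the IgG RIP (88), 0 to 1758 for the interaction (174) and 182 to 1368 for the mean (582). The cause was not tested.

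With the replicate number as a block, the interaction had 0 called genes of the 35 (Bnip3 1.52, adjusted p = 0.0544) and Ldha lost its call with IL-17 in the Arid5a RIP (adjusted p = 0.0557). The block gave 85 calls over all genes for the interaction and 49 for Arid5a against IgG in medium. Same-numbered libraries correlated between -0.13 and 0.20 in their deviations from group means, which does not settle whether they were paired.

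Depth limits the rarest genes: Aldoc had 1 to 24 counts in a library, and Ankrd37, Eno2 and Slc16a3 had 0 in 1 library each.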
